A study of Mus musculus with 4 samples.

Results

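The immunity-related p47 GTPases are interferon-inducible proteins that defend mouse cells against microbes living inside membrane-bound vacuoles. The 7 genes described here were chosen by symbol: Irgm1, Irgm2, Igtp, Iigp1, Tgtp1, Tgtp2 and Ifi47. All 7 had a row among the 27179 genes of the deposited count table, and all 7 passed the filter on low counts. They were measured by RNA sequencing in mAEC, a line of murine aortic endothelial cells, which line the inner wall of a large artery. The control group was cultured in ordinary medium, and the conditioned medium group received the supernatant of macrophages positive for the cytokine TNFα and the macrophage marker CD68. Each group held 2 libraries, described by the series as biological replicates; the sources used here do not state the strain, the length of exposure or what the supernatant held. No group carried a genetic change according to the labels. Library totals ran from 13815695 to 18005840 counts, so 3 counts equalled 0.167 to 0.217 CPM, the count scaled to library size.

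The family falls into regulators and effectors. Irgm1, Irgm2 and Igtp (also called Irgm3) are the regulators: they sit on the cell's own membranes and hold the effectors inactive there. The effectors Iigp1 (Irga6), Tgtp1 and Tgtp2 (both Irgb6) and Ifi47 (Irgd) bind GTP, load in large numbers onto vacuoles that hold parasites such as Toxoplasma, and break their membranes. Both kinds are transcribed through interferon-activated factors, which bind short elements in the promoters: interferon-stimulated response elements, built of repeated GAAA, and gamma-activated sites, built of TTC and GAA arms.

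Promoter sequences are shown first because several members carry a shared block. Its part in the members' levels was not tested. Of the 7 members, 6 had a promoter in the RefSeq table for the GRCm38.p6 build, reaching from 250 bases before the annotated start to 50 after it. Iigp1 had none. In the sequences below, each a 90-base window on the gene's own strand written 5′ to 3′, capitals mark matches to 2 elements searched for on both strands. The response element is GAAA, any 2 bases and GAAA, and the gamma-activated element is TTCNNNGAA, which reads the same on both strands.
Irgm1, chr11:48871406-48871495, minus strand: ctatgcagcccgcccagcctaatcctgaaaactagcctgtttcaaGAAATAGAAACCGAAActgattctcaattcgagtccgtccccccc
Irgm2, chr11:58214868-58214957, plus strand: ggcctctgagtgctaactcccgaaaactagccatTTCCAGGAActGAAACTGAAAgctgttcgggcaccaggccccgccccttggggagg
Igtp, chr11:58199477-58199566, plus strand: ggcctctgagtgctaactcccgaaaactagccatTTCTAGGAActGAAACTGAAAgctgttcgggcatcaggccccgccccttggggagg
Tgtp1, chr11:48992279-48992368, minus strand: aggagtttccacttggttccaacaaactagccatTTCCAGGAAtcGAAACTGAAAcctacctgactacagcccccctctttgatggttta
Tgtp2, chr11:49064238-49064327, minus strand: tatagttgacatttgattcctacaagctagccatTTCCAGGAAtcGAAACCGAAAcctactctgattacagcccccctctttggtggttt

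The response element stood in 5 of the 6 member promoters, against 3.44% of all 32851 promoters of the same length. The gamma-activated element stood in 4 of them, against 8.3% of all promoters, and the same 4 held both elements, as 0.454% of all promoters did. In Irgm2, Igtp, Tgtp1 and Tgtp2 both elements followed each other in the same order without overlapping. With the annotated start counted as 0, the response element began at -64 in Irgm2, -34 in Igtp, -77 in Tgtp1 and -70 in Tgtp2. Irgm1 had 2 overlapping matches to the response element, beginning at -30 and -24, and no match to the gamma-activated element in its window. Ifi47 had no match to either element; its window belongs to the most upstream RefSeq start, and GENCODE also annotates transcripts that begin further inside the gene. The printed windows of Irgm2 and Igtp, which lie side by side, were identical at 88 of 90 bases, and those of Tgtp1 and Tgtp2 at 77 of 91 aligned positions. These 4 promoters are thus pairs of related sequence and not separate observations in the counts above.

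The comparison asked how endothelial expression differed after exposure to the macrophage supernatant. All 7 members stood lower in conditioned medium, and they fell into a steep and a shallow set. Tgtp2, Tgtp1 and Iigp1 fell by 2.06-fold, 1.97-fold and 1.90-fold. Irgm1 fell 1.19-fold, while Igtp, Irgm2 and Ifi47 had log2 fold changes of -0.34, -0.25 and -0.20 and did not pass the test. In the two-sided quasi-likelihood test of edgeR, adjusted over all 13897 genes tested, 4 of 7 members were called lower and 0 higher at an adjusted p under 0.05. Of all genes tested 8.23% were called lower and 8.53% higher. In CPM the groups did not overlap for any of the 7, always with conditioned medium below, as for 28.8% of all genes tested. In DESeq2 3 of 7 were called lower, against 3.31% of all genes, and with the replicate number as a block 5 of 7, against 9.43%. Without control replicate 1 or 2 the count was 5 each, against 8.37% and 11.4% of all genes. Without conditioned medium replicate 1 or 2 it was 3 each, namely Iigp1, Tgtp1 and Tgtp2, against 2.44% and 1.74%. The median log2 fold change was -0.34 over the members and 0.00 over all genes tested. Since whole cultures were sequenced, fewer cells with these transcripts and less RNA per cell cannot be told apart. The sources used here do not say whether the groups were grown or sequenced together, and a batch running with the groups cannot be told apart from the treatment.

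**Figure D1:**
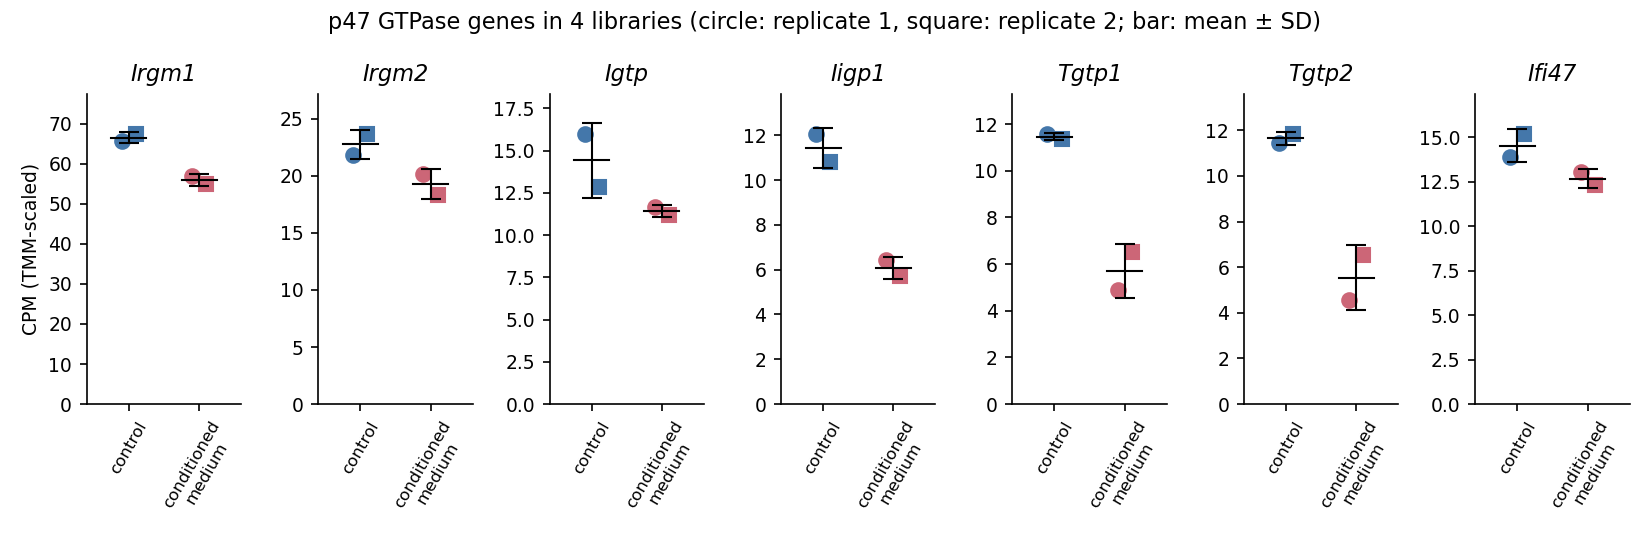
CPM of each p47 GTPase gene (vertical axis, from 0, scaled separately for each gene) in the 2 control libraries (blue) and the 2 conditioned medium libraries (red), with circles for replicate 1, squares for replicate 2, and bars for the mean ± SD. In all 7 genes both conditioned medium libraries lie below both controls; the gap is widest, relative to the level, for Iigp1, Tgtp1 and Tgtp2.

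Among the regulators, Irgm1 had the highest level of the family. It lies on chromosome 11, 48865245 to 48871420, in mm10, the build of the deposited counts and the same assembly as GRCm38. Its level was 65.6 and 67.5 CPM in the control libraries and 57.0 and 55.0 CPM in the conditioned medium libraries, on 790 to 992 counts. The groups stood apart by several times the gap between replicates, and the log2 fold change was -0.25 ± 0.06 (SE; edgeR adjusted p = 0.00444). The log2 fold change stayed between -0.27 and -0.22 in all 15 alternatives, but 3 of them did not call it, each with fewer calls over all genes as well. Without conditioned medium replicate 1 the adjusted p was 0.0521, without replicate 2 it was 0.146, and DESeq2 gave 0.107.

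Irgm2, which lies on chromosome 11 from 58214977 to 58222783, encodes a second regulator found at the Golgi. It stood at 21.9 and 23.7 CPM in control and 20.2 and 18.3 CPM in conditioned medium. The nearest libraries of the groups differed by no more than the controls differed from each other, and the log2 fold change of -0.25 ± 0.09 was not called (edgeR adjusted p = 0.0813). Over the 15 alternatives it ranged from -0.31 without conditioned medium replicate 1 to -0.17 without replicate 2 of that group, neither called (adjusted p = 0.161 and 0.481). It was called in 1 of them, at -0.30 without control replicate 1, where the spread comes from the conditioned medium pair alone.

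Igtp lies just before Irgm2, at 58199556 to 58207592, and its protein sits on the endoplasmic reticulum and lipid droplets. Its controls were the least alike of the family, at 16.0 and 12.9 CPM, whereas the conditioned medium libraries read 11.7 and 11.2 CPM. The log2 fold change was -0.34 ± 0.13 (edgeR adjusted p = 0.0709), and its size depended on which control was used. It was -0.17 without control replicate 1 and -0.49, and called, without control replicate 2. In both fits the spread comes from the conditioned medium pair alone. Control replicate 2 read 0.805 times replicate 1, with a 95% interval of 0.661 to 0.979 from the counts alone (exact binomial, counting error only).

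Of the effectors, Iigp1 is the best studied enzyme of the family and lies alone on chromosome 18, 60373616 to 60392634. It stood at 12.1 and 10.8 CPM in control and at 6.42 and 5.71 CPM in conditioned medium, from 178 and 158 counts to 89 and 103. Every treated library was thus well below the lower control, and the log2 fold change was -0.92 ± 0.14 (edgeR adjusted p = 1.27e-04). The call remained in all 15 alternative settings, with -0.83 as the log2 fold change nearest to 0.

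Tgtp1 lies on chromosome 11 from 48985329 to 48992246 and Tgtp2 from 49057196 to 49064212. Tgtp1 stood at 11.6 and 11.4 CPM in control and 4.91 and 6.54 CPM in conditioned medium. Tgtp2 stood at 11.4 and 11.8 CPM in control and 4.55 and 6.54 CPM in conditioned medium. The controls lay close together in both genes, and conditioned medium replicate 1 was the lowest library of each. The log2 fold change of Tgtp1 was -0.98 ± 0.15 (edgeR adjusted p = 1.17e-04) and that of Tgtp2 was -1.04 ± 0.16 (edgeR adjusted p = 9.33e-05). In order from the lowest log2 fold change, Tgtp2, Tgtp1 and Iigp1 held ranks 36, 43 and 51 among the 13897 genes tested.

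The Tgtp genes are copies that reads can barely separate. Their longest GENCODE transcripts were identical at 2804 of 2823 aligned positions, and 91.4% of the 50-base stretches of Tgtp1 also occurred in the transcript of another gene, 2480 of these 2536 in Tgtp2. For comparison, that share was 0.995% for Irgm1, 3.19% for Iigp1, 3.71% for Ifi47, 7.36% for Irgm2 and 12.3% for Igtp, the last shared with Irgm2. The sources used here do not state how reads that fit several genes were counted, so the values of Tgtp1 and Tgtp2 are uncertain one by one and count as a single observation. Their counts were almost equal in each library, with Tgtp1 at 0.960 to 1.08 times Tgtp2. Summed to a single feature, they held 340 and 339 counts in control and 131 and 236 in conditioned medium, giving -1.01 ± 0.12 on the log2 scale (edgeR adjusted p = 6.09e-06). With that sum in place of the pair, 3 of 6 features were called lower, against 8.23% of all genes tested.

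The treated libraries disagreed about the size of the Tgtp fall. Summed, the pair stood at 9.45 CPM in conditioned medium replicate 1 and 13.1 CPM in replicate 2. Taken singly, conditioned medium replicate 2 read 1.44 times replicate 1 for Tgtp2 (95% interval 1.05 to 1.99, counting error only) and 1.33 times for Tgtp1 (0.981 to 1.82). These intervals are not independent, because the genes share most of their sequence. The other replicate pairs of the family, Igtp in control apart, had intervals that include 1. Without conditioned medium replicate 1 the log2 fold change of Tgtp2 was -0.83, and without replicate 2 it was -1.36, called in both cases (adjusted p = 0.0106 and 0.00302).

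Ifi47, the last effector, lies on chromosome 11 from 49076587 to 49096987, next to Tgtp2. It stood at 13.9 and 15.2 CPM in control and 13.1 and 12.3 CPM in conditioned medium. The groups were separated by less than the gap between the controls, and its log2 fold change of -0.20 ± 0.11 was not called (edgeR adjusted p = 0.254). It was not called in any of the 15 alternatives either, and moved to -0.14 without control replicate 2. GENCODE annotates 111 of its 2473 exon bases also to Olfr56, on the same strand, and 106 to Gm12188, on the opposite strand, and the library kit does not mark strand.

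**Figure D2:**
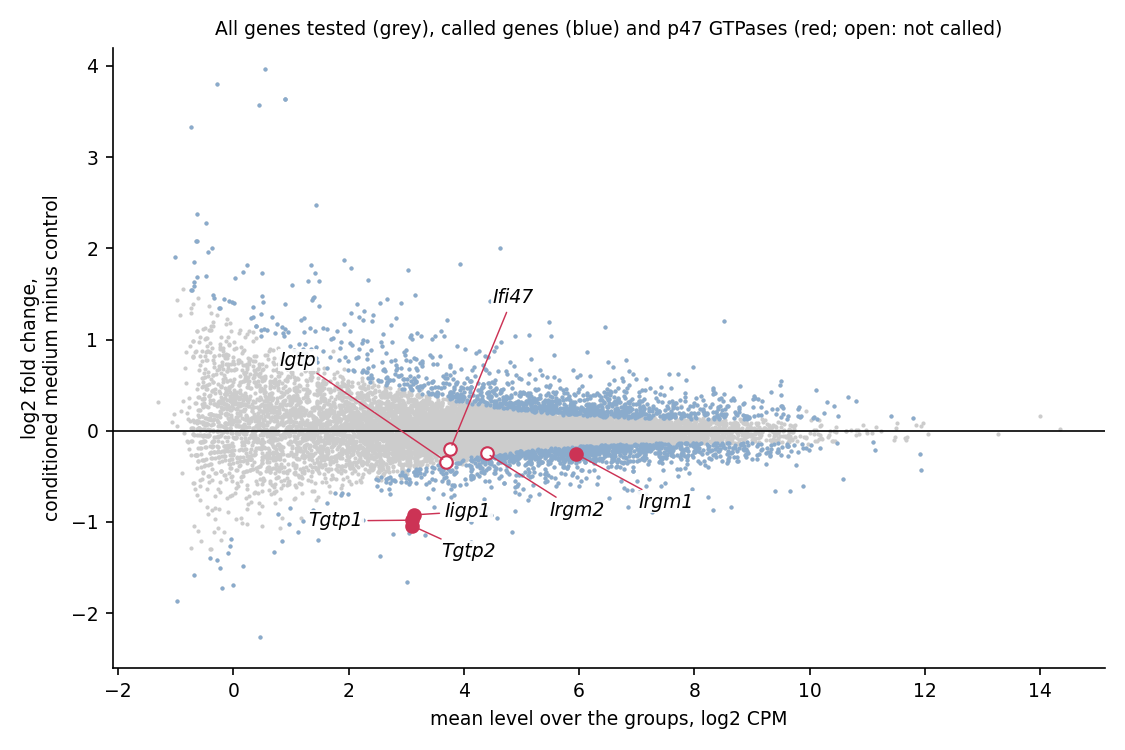
Log2 fold change (vertical axis, conditioned medium minus control) against mean level in log2 CPM (horizontal axis) for all genes tested (grey), called genes (blue) and the 7 p47 GTPases (red, open where not called). Tgtp2, Tgtp1 and Iigp1 lie at the lower edge of genes of their level, near -1, and the other 4 members lie between -0.20 and -0.34.

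The division into a steep and a shallow set, which was made after the values were seen, can be read within each library, where no scaling enters. The count of Iigp1 relative to Irgm1 was 0.184 and 0.160 in control and 0.113 and 0.104 in conditioned medium. That of the summed Tgtp genes relative to Irgm1 was 0.351 and 0.344 in control and 0.166 and 0.238 in conditioned medium. Both ratios were lower in every treated library, by 0.67 and 0.81 on the log2 scale. The ratios of the shallow members to Irgm1 overlapped between the groups. Irgm2 ranged from 0.333 to 0.354 and Ifi47 from 0.212 to 0.229 over the 4 libraries. Igtp varied more, from 0.191 to 0.244, with both extremes in the controls. The Tgtp sum relative to Iigp1 overlapped as well, at 1.91 and 2.15 in control and 1.47 and 2.29 in conditioned medium. With 2 libraries against 2 an exact permutation test cannot go below p = 0.333, and the ratios of Iigp1 and of the Tgtp sum to Irgm1 each gave that value, two-sided, among 6 ratios computed.

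As a sum, the regulators went from 103 and 104 CPM in control to 88.9 and 84.5 CPM in conditioned medium, and the effectors from 49.0 and 49.2 CPM to 28.9 and 31.1 CPM. Iigp1, Tgtp1 and Tgtp2 together made up 35.1 and 34.0 CPM of the control sums. Per kilobase of annotated exon, Irgm1 led in control at 11.5 ± 0.225 CPM per kb (SD, n = 2). Igtp followed at 7.13 ± 1.09, Irgm2 at 6.17 ± 0.345, Ifi47 at 5.88 ± 0.374, Tgtp2 at 3.96 ± 0.0947, Tgtp1 at 3.58 ± 0.0488 and Iigp1 at 1.96 ± 0.151 CPM per kb. Igtp and Irgm2 overlapped between libraries in control, as did Irgm2 and Ifi47. In conditioned medium the means kept this order, from 9.64 ± 0.246 for Irgm1 to 1.04 ± 0.0865 CPM per kb for Iigp1, with Irgm2 and Ifi47 overlapping, and Tgtp2 and Tgtp1 as well. The order depends on the length assigned to each gene: with the longest coding transcript in place of all exons, Ifi47 came second in control at 8.20 ± 0.522 and Irgm1 stood at 29.5 ± 0.579 CPM per kb.

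The members lie in 3 places, and tested neighbours within and beside these were examined. Irgm1, Tgtp1, Tgtp2 and Ifi47 share a stretch of 232 kb on chromosome 11 with 4 further tested genes, and all 4 were called lower, against 8.23% of all genes tested. RefSeq names 3 of them by p47 GTPase synonyms (Gm5431 as Irgb9b8, Gm12185 as Irgb2b1 and 9930111J21Rik2 as Irgb5); the other is 9930111J21Rik1. The highest expressed was 9930111J21Rik1, at 130 and 138 CPM in control and 84.6 and 88.0 CPM in conditioned medium, which is -0.63 ± 0.05 on the log2 scale (edgeR adjusted p = 4.74e-08). It was followed by 9930111J21Rik2 at -0.59 ± 0.05, Gm12185 at -0.58 ± 0.13 and Gm5431 at -0.53 ± 0.12. These falls lie between those of the steep and the shallow members, and 223 exon bases annotated to Tgtp1 are also annotated to Gm12185. Some 50-base stretches of Tgtp2 also occur in Gm12185 and 9930111J21Rik2. How much of their own sequence these 4 genes share with others was not computed. Gm12185 and Gm5431 lost their calls in DESeq2 (adjusted p = 0.0641 and 0.0638) and without conditioned medium replicate 1 (0.0543 and 0.138), and Gm12185 also without replicate 2 of that group (0.0959).

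Outside that stretch the nearest tested genes did not pass the test. Trim7 and Trim41 lay before it at log2 fold changes of -0.00 and 0.12, and Olfr56 and Btnl9 after it at -0.39 ± 0.23 and -0.04 ± 0.31 on few counts. Around Igtp and Irgm2, Gemin5, Mrpl22 and Zfp672 stood between -0.08 and 0.03, and Zfp692 at 0.40 ± 0.16 (edgeR adjusted p = 0.104; 0.0491 without control replicate 2). Near Iigp1 on chromosome 18, the family genes Gm4951 (Ifgga2) and F830016B08Rik (Ifgga4) stood at -0.58 ± 0.28 and -1.01 ± 0.39, neither called, at 0.554 to 3.01 CPM. On the other side Smim3 was at 0.25 ± 0.13 and Dctn4 at -0.03 ± 0.06, also not called.

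**Figure D3:**
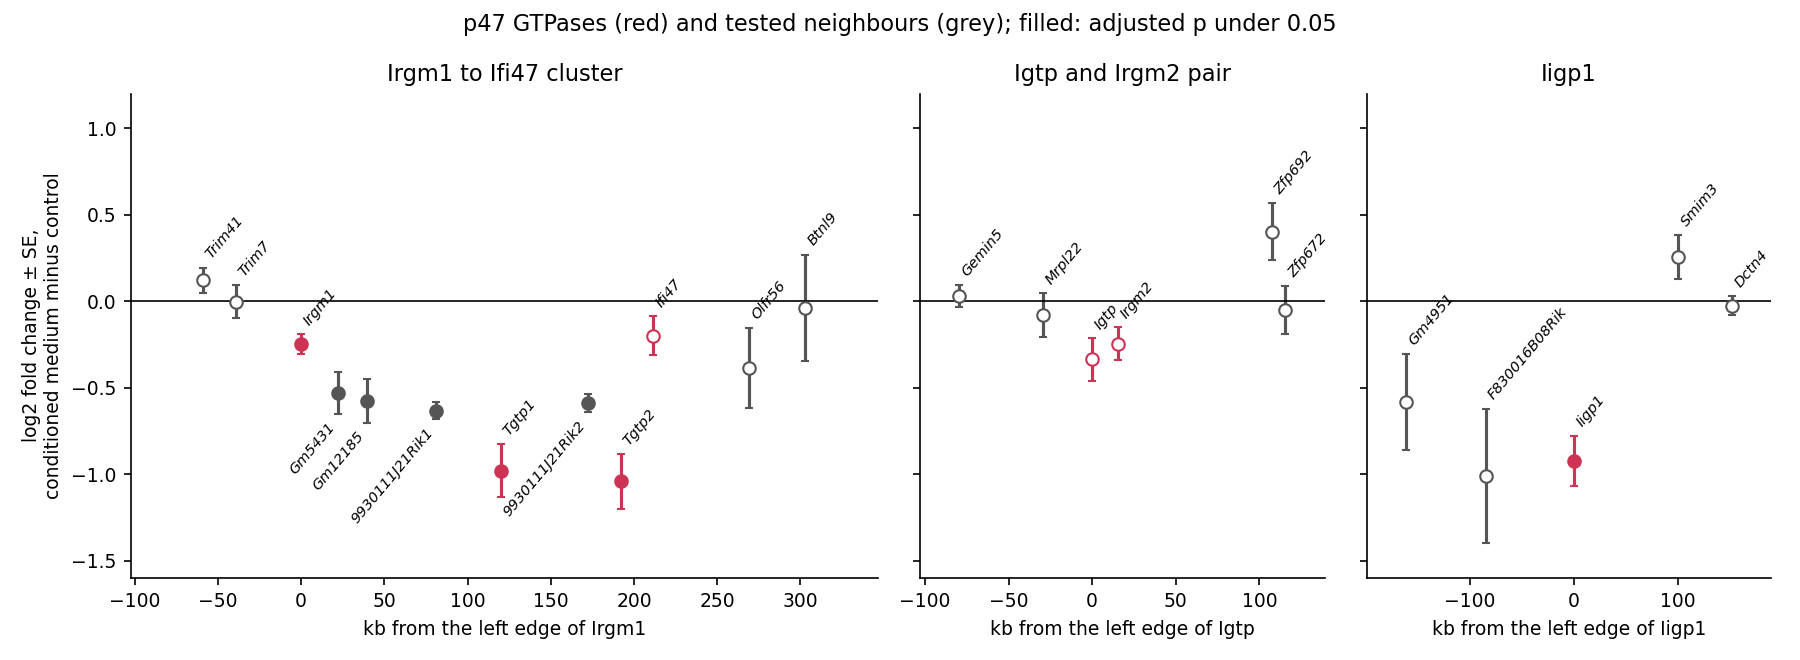
Log2 fold change ± SE (vertical axis) of p47 GTPases (red) and neighbouring tested genes (grey) against the distance in kb from the left edge of the first member (horizontal axis) in each of the 3 places; filled points passed an adjusted p of 0.05. Inside the Irgm1 to Ifi47 stretch all points lie below 0 and 7 of 8 are filled, while the flanking genes are open. Of all genes tested 8.23% were called lower. Tgtp1 and Tgtp2 are drawn as separate points, although reads can barely separate them.

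Other genes of the family and of the pathway that induces it were taken from lists. The counts of each list stand against 8.23% called lower and 8.53% called higher over all genes tested. Of 8 further p47 and giant interferon-inducible GTPases tested, 5 fell, 0 rose and 3 did not pass the test, with a median log2 fold change of -0.58. Beside the 4 genes of the Irgm1 stretch the faller was Gvin1, a giant GTPase, at -0.23 ± 0.05, named after its value was seen, and Irgq, a divergent relative, stood at 0.23 ± 0.10 (edgeR adjusted p = 0.103). Gvin1 was not called without either conditioned medium library (adjusted p up to 0.143). The count of 5 was 3 in DESeq2, 2 without conditioned medium replicate 1 and 3 without replicate 2. Gm12250, the gene of the effector Irgb10, lies beside Igtp and held 3 and 2 counts in control and 0 and 0 in conditioned medium, below the filter.

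Guanylate-binding proteins, the larger interferon-inducible GTPases that act on the same vacuoles, were divided as well. Of 10 tested, 7 fell, 0 rose and 3 did not pass the test, with a median of -0.51 (4 were called without conditioned medium replicate 2). Gbp3 stood at 24.3 ± 0.564 CPM in control and 10.4 ± 0.241 CPM in conditioned medium (-1.22 ± 0.10 on the log2 scale; edgeR adjusted p = 7.26e-08), Gbp5 was at -1.13 ± 0.17 and Gbp2 at -0.85 ± 0.11. Gbp11, Gbp4 and Gbp8, named after their values were seen, stood at -0.06 ± 0.12, 0.01 ± 0.07 and 0.04 ± 0.10. Stretches shared among these paralogs make single values less certain than the group's.

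Among 15 tested interferon receptors, kinases and transcription factors, 8 fell, 2 rose and 5 did not pass the test, with a median of -0.14. Ifngr1, the ligand-binding chain of the interferon gamma receptor, stood at 49.8 ± 0.173 CPM in control and 34.7 ± 1.28 CPM in conditioned medium, or -0.52 ± 0.07 on the log2 scale (edgeR adjusted p = 1.53e-05). Its partner Ifngr2 was at -0.05 ± 0.05. Irf1, a factor that drives p47 GTPase genes, was at -0.48 ± 0.10 and Ifnar1, a type I interferon receptor chain, at -0.36 ± 0.05. The 2 that rose, Stat3 (0.35 ± 0.05) and Irf8 (0.21 ± 0.05), and Ifngr2 were named after their values were seen. Irf1 and Irf8 were not called by DESeq2 (Irf1 adjusted p = 0.0595) or without conditioned medium replicate 1, nor was Irf8 without replicate 2 of that group. The count of 8 was 2 in DESeq2, 2 without conditioned medium replicate 1 and 4 without replicate 2. Of 5 inhibitors of interferon signalling, Socs3 rose by 0.58 ± 0.09 and Usp18, itself interferon-inducible, fell by 0.49 ± 0.10, a call lost in DESeq2 (adjusted p = 0.0575) and when conditioned medium replicate 1 or 2 was left out (0.0505 and 0.0625). The interferon genes Ifng, Ifnb1, Ifna4, Ifnl2 and Ifnl3 held 0 counts in all 4 libraries, which allows up to 0.217 CPM in the shallowest.

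**Figure D4:**
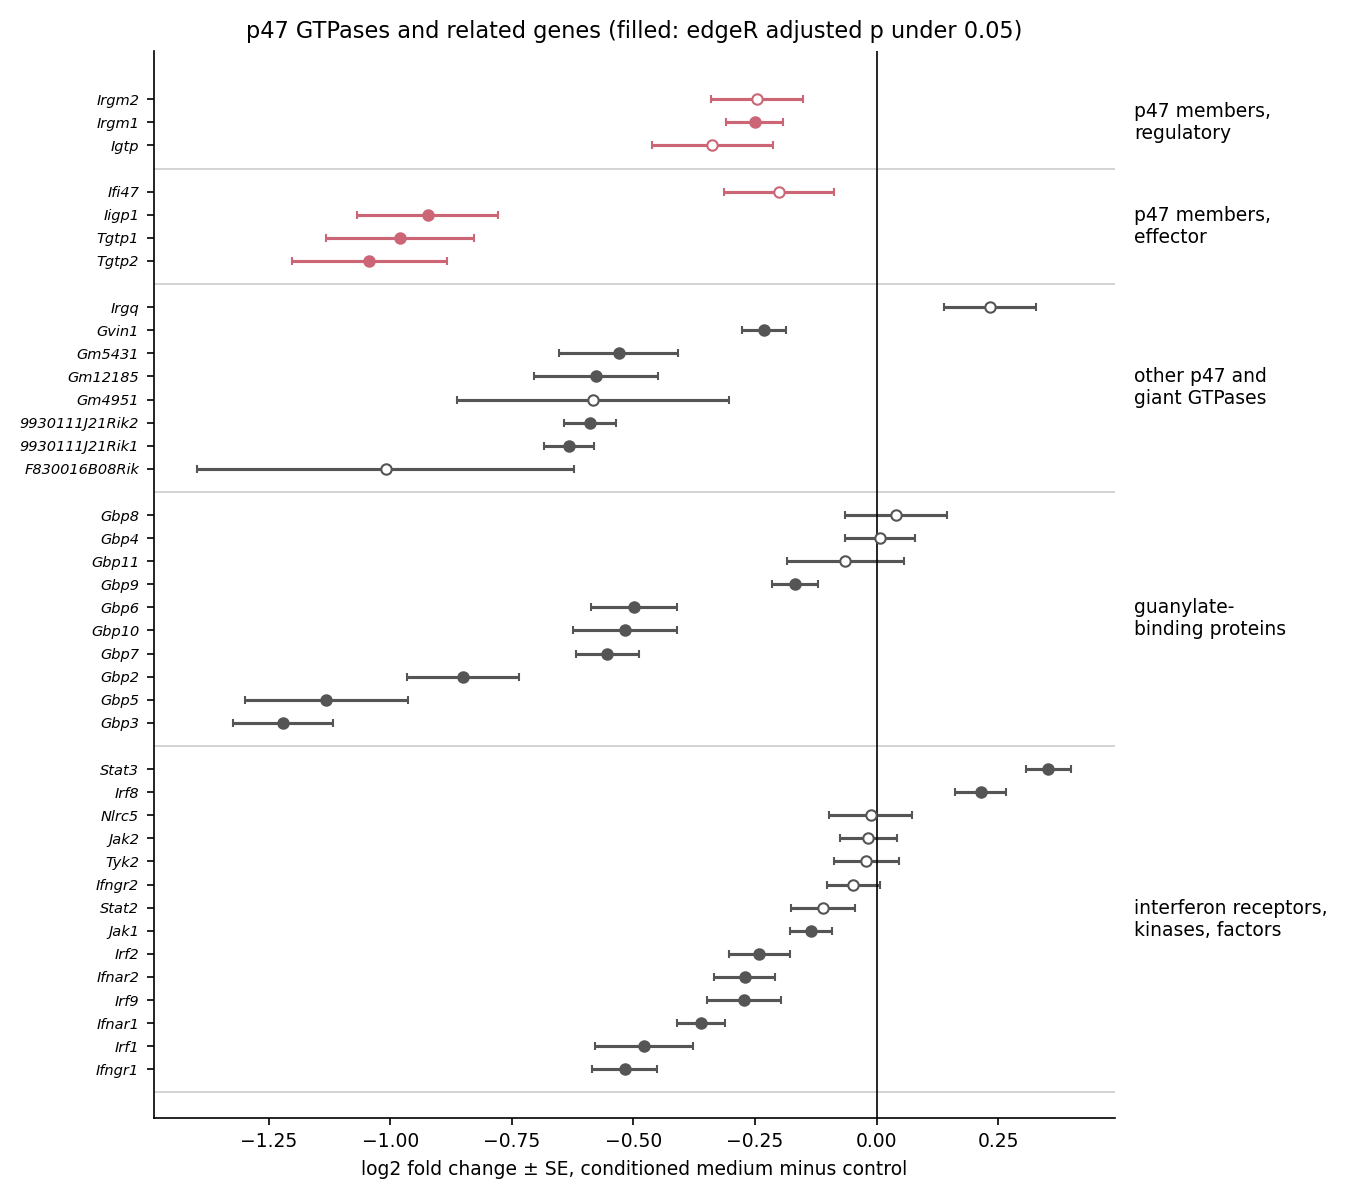
Log2 fold change ± SE (horizontal axis, conditioned medium minus control) of the p47 members (red) and of tested genes from 3 related lists (grey), by list, with 1 listed gene not shown; filled points passed an adjusted p of 0.05. Tgtp1, Tgtp2 and Iigp1 lie in the range of Gbp2, Gbp3 and Gbp5, and the regulators, at -0.25 to -0.34, near Ifnar1 at -0.36.

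Autophagy conjugation and ubiquitin genes, listed because their products act with p47 GTPases at vacuoles, showed no common direction. Of 19 tested, 3 fell, 2 rose and 14 did not pass the test, with a median of -0.05. Over all genes tested 8.23% were called lower and 8.53% higher. Atg3, an LC3-conjugating enzyme, was at -0.46 ± 0.11, Rnf213, a ubiquitin ligase, at -0.33 ± 0.05, and Lgals3, which binds damaged vacuoles, at 0.53 ± 0.10. Sqstm1 (-0.24 ± 0.04) and Map1lc3b (0.22 ± 0.04) were the others called, named after their values were seen. Atg3 was not called in DESeq2 (adjusted p = 0.0736) or without conditioned medium replicate 1 (0.149), Rnf213 not without replicate 2 of that group (0.0560), and Sqstm1 and Map1lc3b not without either (adjusted p up to 0.0774 and 0.0720).

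Genes other than the members were ranked by how near their centred log2 CPM over the 4 libraries lay to the members' mean profile. The nearest were Pi15, a peptidase inhibitor, Gsta1, a glutathione transferase, Ifngr1, Clec1a, a C-type lectin, and 9930111J21Rik2. The last is the p47 GTPase relative Irgb5 from the Irgm1 stretch. Their Euclidean distances from that profile were 0.0156 to 0.0557 log2 units among 10672 genes averaging 5 CPM or more, and their log2 fold changes ran from -0.61 to -0.52. The members themselves lay further away, at 0.330 to 0.602, since their mean falls between the steep and the shallow set. Beyond the members, 308 tested genes held the response element in their promoter window. Of these 18.2% were called lower and 7.79% higher, with a median log2 fold change of -0.05, against 8.01% and 8.63% of 9828 tested genes without it. Of 711 tested genes with the gamma-activated element 7.88% were called lower and 8.86% higher, near the 8.34% and 8.6% of all 10142 tested genes with a promoter. Of 36 tested genes with both elements 22.2% were called lower and 13.9% higher. This is a description of promoter letters, with no test. The response element was in all 5 promoters listed for guanylate-binding proteins (Gbp2, Gbp2b, Gbp3, Gbp5 and Gbp7, of which Gbp2b did not pass the count filter). It was in 3 of 6 of the other p47 and giant GTPases and in 2 of 13 of the interferon receptors, kinases and factors. Genes that fell without a match to the response element in their window included 9930111J21Rik2, Gm5431, Ifngr1 and Irf1. The window of Irf1 did hold the gamma-activated element.

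The labelled cell type was checked against its markers. Of 10 endothelial markers 9 passed the count filter, among them Pecam1 and Cdh5. Vwf passed at only 2.30 to 3.49 CPM over the libraries, and Cldn5 held 1 count in all. Of the endothelial markers 1 fell and 2 rose, against 8.23% called lower and 8.53% called higher over all genes tested. Kdr stood at -0.16 ± 0.04, Eng at 0.32 ± 0.05 and Egfl7 at 0.21 ± 0.04, named after their values were seen. The summed level of the endothelial markers was 6124 to 6129 CPM in control and 6257 to 6322 CPM in conditioned medium. Of 10 macrophage markers 3 passed the filter and 0 were called. Their summed level, almost all of it Cd68, was 231 to 260 CPM in control and 253 to 260 CPM in conditioned medium. Adgre1 and Tyrobp were at 0 in all libraries and Ptprc held 1 count. Of 5 fibroblast markers 1 passed the filter, Pdgfra, which rose by 0.28 ± 0.08 (edgeR adjusted p = 0.0171), and their summed level was 25.7 to 27.9 CPM in control and 32.5 to 32.9 CPM in conditioned medium. Smooth muscle, epithelial and T and NK cell lists summed to at most 4.93 CPM in any library. The part of other cell types in the members' differences was not tested. Replicates of both groups differed beyond counting noise, the controls more so: chi-square divided by its degrees of freedom was 4.50 for the control pair, where counting noise alone gives 1, and lower for the conditioned medium pair.

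**Figure D5:**
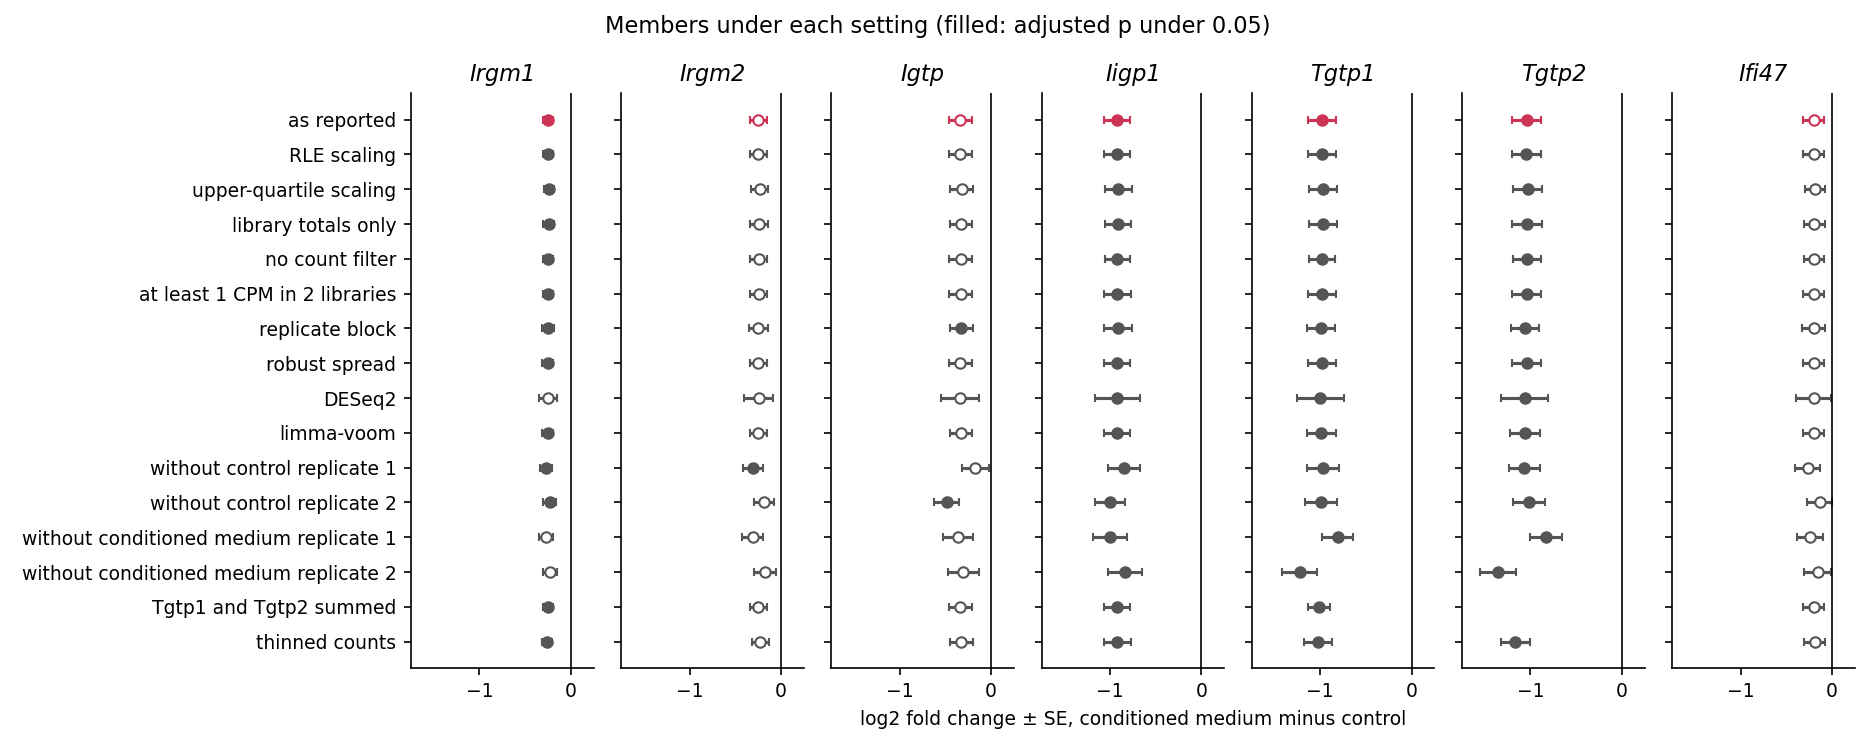
Log2 fold change ± SE (horizontal axis) of each member under the reported analysis (red) and 15 alternative settings (grey, listed on the vertical axis), filled where the adjusted p was under 0.05; in the row with Tgtp1 and Tgtp2 summed, the Tgtp1 panel shows the sum. Every point lies below 0, Iigp1, Tgtp1 and Tgtp2 are filled in every row they appear in, and Ifi47 in none.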

How the data were processed

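Total RNA libraries were made with a TruSeq kit, per the labels' protocols. The file deposited by the authors holds raw counts for each Entrez gene and library. Tools in the submitters' processing notes are STAR 2.5.2b, featureCounts and Subread 1.4.6-p1, with mm10 as build; the sources used here do not state settings or annotation release. Symbols came from RefSeq (GRCm38.p6); the 1904 unmatched rows, with 6.31% of the counts, stayed in the totals and tests. Low genes were removed with filterByExpr (minimum count 10, total 15), and libraries were scaled by TMM (factors 0.987 to 1.01) and compared with edgeR 4.0.16 in R 4.3.3 (quasi-likelihood, no replicate block, 2 residual degrees of freedom, Benjamini-Hochberg over all genes). SEs were obtained by dividing absolute log2 fold changes by the root of F. Exon lengths and transcripts are from GENCODE M21. Alternatives used limma 3.58.1, DESeq2 1.42.0, other scalings and filters, thinned counts, a replicate block and left-out libraries.

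The members, lists and tests were chosen with earlier results of these data known. Named genes are the members, up to 3 called genes of each list with the largest change (or the one with the smallest p), the 5 most alike, and the 2 nearest tested neighbours on each side. A listed gene that is not reported here by name stays in the counts.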

Additional observations from a re-analysis of the deposited data

How the results depend on the processing

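The number of members called lower was 4 in 8 of the 15 alternatives, against 4.61% to 8.92% of all genes tested. It was 3 in DESeq2 and with Tgtp1 and Tgtp2 summed, against 3.31% and 8.23%. It ranged from 3 to 5 when a library was left out. No member changed direction. Among all genes 2330 were called, against 857 in DESeq2 and 569 to 3107 when a library was left out, the lowest without conditioned medium replicate 2 and next 808 without replicate 1 of that group. In those fits the spread comes from the control pair alone, the lone library being assumed to vary alike. Without a control library the spread comes from the conditioned medium pair alone, whose replicates differed less. The members' median was -0.49 without control replicate 2. With the replicate number as a replicate block 5 members and 2671 genes were called, Igtp being added at an adjusted p of 0.0495. The labels do not say whether a shared number marks a shared culture or day. Over 9633 genes the deviations of same-numbered libraries correlated at -0.05, a single value that cannot settle this with 2 libraries per group. Depth limits the low genes: the fewest counts of a member in any library were 63, for Tgtp2.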
